A study of Mus musculus with 33 samples.

Results

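Serum response factor (SRF) was mapped by chromatin immunoprecipitation followed by sequencing (ChIP-seq) in wild type mouse embryonic fibroblasts (MEFs) through heat shock. The 3 SRF peak lists held 64 peaks before heat shock, 68 after 12 min and 18 after 60 min. Peaks on the mitochondrial chromosome and in the first 3.1 Mb of chromosome 9 were set aside. This left 138 SRF peaks, 61, 60 and 17 by time, of the 45686 peaks in all 15 peak lists of the series.

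SRF is a MADS-box transcription factor that binds DNA as a dimer at a short A- and T-rich element, the CArG box. It acts with partners of the ternary complex factor family, which carry signals of growth factor pathways, or with myocardin-related factors, which are held back by monomeric actin. Its best-known targets in fibroblasts are immediate early genes such as Egr1 and genes of the actin cytoskeleton.

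The cells were MEFs of the strain background 129Sv.BALB/c, and all 3 SRF groups were wild type. Chromatin of isolated nuclei was precipitated with the SRF antibody D71A9 from Cell Signaling before heat shock, after 12 min and after 60 min of heat shock, and each list was called against non-specific IgG of the same time. The other 12 lists came from antibodies labelled CS and MM, treated as HSF1 antibodies, in wild type and HSF1 knockout MEFs at the same times. The labels give neither the number of embryos behind the cells nor the heat shock temperature, and no SRF library of cells lacking SRF was analysed here.

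There was 1 SRF list per time, so no difference between times has a replicate check and none was tested. Intervals are 95% exact intervals, binomial for shares and Poisson for tags, and cover counting error only. The libraries were shallow, with between 0.751 and 1.55 M distinct tags (M for mega, 1e6), and between 73% and 85% of all tags were redundant. Tag length moved with time too, from 19 bp in the library of unshocked cells to 31 bp in the later ones.

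A complete CArG box stood in 3 of the 15 RefSeq promoter windows that held an SRF summit. Genes without an entry in the promoter table, among them Egr1, Egr3, Trib1, Vdac2 and Dynlt1b, could not be searched. Summits fell inside the RefSeq promoter window of 15 genes, which runs from 250 bases before to 50 bases after a transcript start. A CArG box was searched as CC, then 6 letters that are each A or T, then GG, on both strands. The stretches below show the boxes found in these windows, taken from the RefSeq promoter table of GRCm38.p6 and written 5′ to 3′ on the strand of the gene. Capitals mark the box. In Gga1, Glipr2 and Gm1720 the box is complete.
Gga1 (chr15:78877080-78877149, forward strand): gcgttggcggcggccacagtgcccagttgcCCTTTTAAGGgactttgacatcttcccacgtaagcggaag
Glipr2 (chr4:43957588-43957657, forward strand): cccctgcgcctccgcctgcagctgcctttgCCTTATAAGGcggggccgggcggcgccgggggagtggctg
Gm1720 (chrX:166661873-166661942, forward strand): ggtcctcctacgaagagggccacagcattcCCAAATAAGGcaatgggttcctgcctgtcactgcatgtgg

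In the next 4 genes 1 of the 6 middle letters is G or C. The stretch of Map3k14 starts at the edge of its window and holds a pair of overlapping boxes.
Map3k14 (chr11:103267586-103267651, reverse strand): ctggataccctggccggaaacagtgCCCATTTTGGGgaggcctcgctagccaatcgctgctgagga
Mcl1 (chr3:95658683-95658752, forward strand): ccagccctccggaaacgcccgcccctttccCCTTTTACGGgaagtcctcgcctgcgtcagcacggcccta
Myl12a (chr17:71002512-71002581, reverse strand): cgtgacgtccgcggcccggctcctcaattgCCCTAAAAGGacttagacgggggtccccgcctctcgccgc
Nr4a1 (chr15:101266715-101266784, forward strand): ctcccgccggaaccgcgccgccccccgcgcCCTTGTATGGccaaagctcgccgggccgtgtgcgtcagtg

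In the last 4 stretches 1 of the outer letters, C or G, is another letter. The boxes of Tpm1 and Wdr1 are the same letters read on opposite strands.
Homer1 (chr13:93303622-93303691, forward strand): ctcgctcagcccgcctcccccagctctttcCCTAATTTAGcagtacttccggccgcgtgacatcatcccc
Tpm1 (chr9:67049395-67049463, reverse strand): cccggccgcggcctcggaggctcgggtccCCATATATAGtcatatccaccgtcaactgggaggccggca
Wdr1 (chr5:38561713-38561782, reverse strand): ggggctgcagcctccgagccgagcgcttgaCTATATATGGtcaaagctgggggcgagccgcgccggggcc
Zswim6 (chr13:107890060-107890129, reverse strand): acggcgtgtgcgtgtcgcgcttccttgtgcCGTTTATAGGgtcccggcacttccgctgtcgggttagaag

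The complete box stood in 3 of the 15 windows, or 20% (4.33% to 48.1%), and in 1.63% of all 32851 promoter windows of the same length (535 windows). With 1 middle letter allowed to be G or C, 8 of 15 windows held a box, or 53.3% (26.6% to 78.7%), beside 9.98% of all windows. With 1 letter anywhere in the box allowed to differ, a rule added after the letters under the Wdr1 summit were seen, 12 of 15 windows held one, or 80% (51.9% to 95.7%), beside 21.1% of all windows. Mob3a, whose letters are not printed, was the eighth gene under the middle-letter rule. A match is a description of the letters and no evidence of a bound site.

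For each of the 12 genes the box of the strictest class was taken, and of several the one nearest to the summit. These boxes were all inside their SRF peaks, and in 9 of the 12 genes the centre of the box was within 20 bp of a summit at 1 time or more. At Gm1720, a long non-coding RNA gene, the box centre was 1.5 bp from the summit before heat shock and 0.5 bp from it at 12 min, in peaks called from separate libraries. A further box of Gm1720, with 1 middle letter changed, lay 89.5 to 91.5 bp away, and Tpm1 held a further one 136.5 bp from its summit. At Homer1, a scaffold protein of synapses with a short form induced as an immediate early gene, the distances were 1.5 and 4.5 bp. Glipr2, Mob3a and Zswim6 were the 3 genes with the box farther away, 42.5 bp at Glipr2 and at least 56.5 bp at all 3 times at Zswim6.

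**Figure D1:**
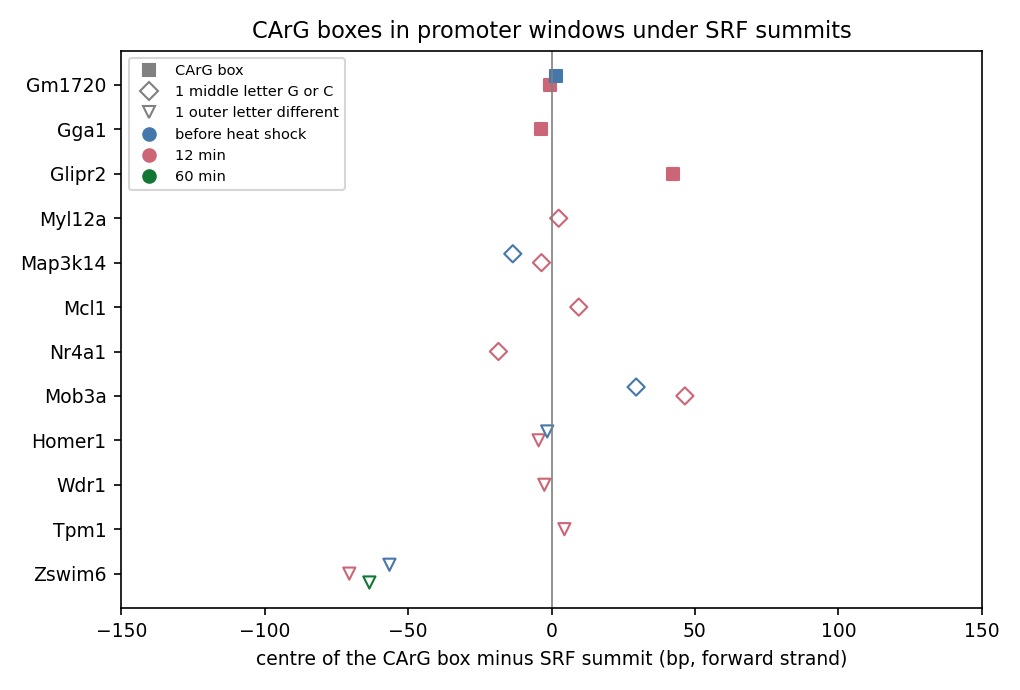
Position of the CArG box relative to the SRF summit for the 12 genes with a box in a promoter window under a summit, with 1 box per gene, the nearest of its strictest class. The horizontal axis is the box centre minus the summit in bp along the forward strand, the marker shape gives the class of box and the colour the time. In 9 of the 12 genes a marker lies within 20 bp of 0, and the markers of Zswim6 lie apart at all 3 times.

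The other letters searched were those of the partner and of the heat shock factor. CCGGAA, or TTCCGG on the other strand, is the core bound by Ets proteins such as the ternary complex factors, and it stood in 10 of the 15 windows, 66.7% (38.4% to 88.2%), beside 14.9% of all windows. In the stretches printed above it stands beside the box of Map3k14, Mcl1, Nr4a1 and Homer1 and overlaps none of them. The heat shock element, searched on both strands as 3 units of GAA in alternating orientation with 2 letters between them, stood in 1 of the 15 windows, that of the splicing factor gene Sf3b2, beside 0.603% of all windows. Capitals mark the element in its stretch, whose first 3 letters are also the last 3 of a CCGGAA.
Sf3b2 (chr19:5295423-5295495, reverse strand): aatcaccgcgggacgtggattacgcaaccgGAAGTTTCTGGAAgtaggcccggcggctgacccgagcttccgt

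Sf3b2, Gm3417 and Tcte3 were the 3 genes of the 15 with no box under any of the CArG rules. All 3 summits lay over an HSF1 region of 12 min, a place called with both CS and MM. The complete box stood in 3 of the 10 genes whose summit lay over no such region and in 0 of the 5 over one. With at most 1 middle letter changed, the counts were 7 of 10 and 1 of 5 (Myl12a). With 1 letter anywhere changed, they were 10 of 10 and 2 of 5 (Myl12a and Wdr1), beside 21.1% of all windows. That last rule was added after the Wdr1 letters were seen, and the split was not tested. These genes were named after their values were seen, as all those whose promoter window held a summit.

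Peak heights were low at every time, and the deposited pileups are not on one scale. The tag counts behind them were recovered on a reading of the values that the headers do not state: that the authors' caller scaled each SRF library down to the depth of its IgG library and dropped the decimals. On that reading 1 unit of pileup stood for 1.87, 4.59 and 1.94 tags in time order. A pileup of 3, the most common before heat shock and at 12 min, then held 6 to 7 tags before heat shock, 14 to 18 tags at 12 min and 6 to 7 tags at 60 min. Whole tags came out for 150 of the 150 deposited peaks, within 0.1 of a whole number. Heights below are these tags at the summit, or tags per M distinct tags of the library.

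The median peak of the kept lists held 7 tags before heat shock (5 to 59), 18.5 tags at 12 min (13 to 57) and 8 tags at 60 min (5 to 28). As tags per M distinct tags the medians were 9.32, 11.9 and 8.43, which lie closer together than the tags. The smallest peak in a list stood at 6.66, 8.40 and 5.27 per M in time order. These lowest listed rates are observed values, not measured thresholds of the caller, and their intervals overlap.

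The 4 highest peaks before heat shock lay at places where the HSF1 knockout lists also held peaks. They were an adjacent pair on chromosome 2 with 43 and 59 tags, 1 on chromosome 14 with 37 and 1 on chromosome 9, with its summit at 35305522, with 58. In the knockout lists the same places carried peaks of 691 to 5491 tags at every time and with both antibodies. The wild type CS and MM lists held no peak at these places at any time. The fold enrichment over background of these SRF peaks was 3.11 to 6.47. Their local background was 3.56 to 10, where the genome-wide value was 0.043. Both are in units of pileup at the depth of the IgG library, not in SRF tags. Without these 4 the highest SRF peak before heat shock held 14 tags, at Zswim6. No peak at 12 or 60 min lay at such a place, meaning one with a knockout peak of at least 100 tags.

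**Figure D2:**
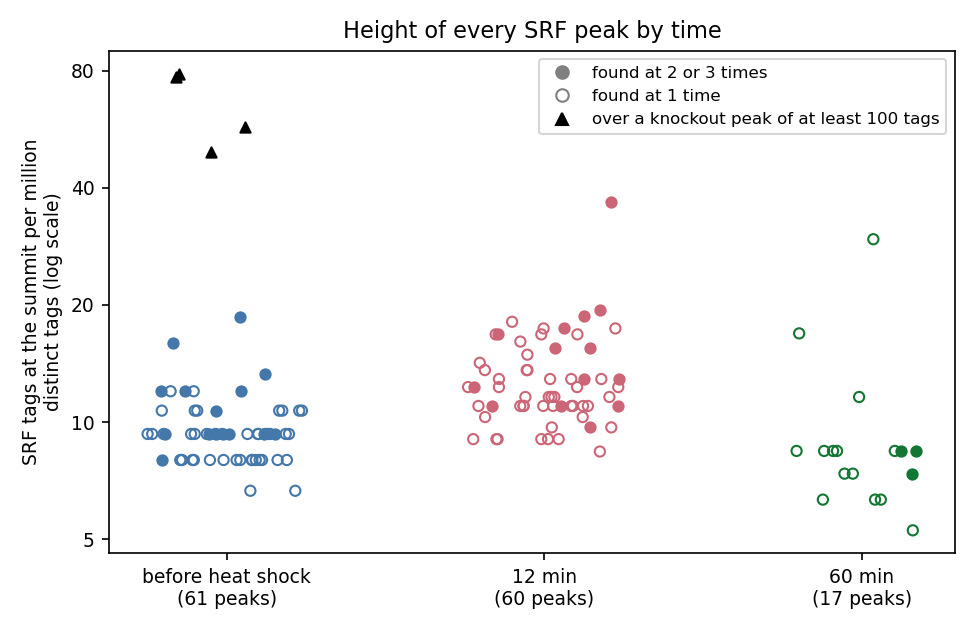
Height of each of the 138 SRF peaks, as tags at the summit per M distinct tags on a log scale, by time. Filled circles are places found at 2 or 3 times, open circles places found at 1 time and triangles the 4 places with strong HSF1 knockout peaks, which are the highest points before heat shock at 49.3 to 78.6 per M.

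The 138 peaks formed 121 places, of which 106 were listed at 1 time, 13 at 2 times and 2, Zswim6 and Egr1, at all 3. Of the 13 places, 12 were listed before heat shock and at 12 min, and 1, inside Ubtd1, before heat shock and at 60 min. The summits of a repeated place were a median of 14 bp apart (2 to 78). Of the repeated places 6 remained when only peaks with a −log10 q of at least 1.3 were used. Before heat shock the −log10 q was 0.84 at Egr1 and 0.86 at Homer1, Egr3, Synpo2, Jazf1 and Ubtd1. Of the 61 peaks before heat shock 14 overlapped a 12 min peak, 23% (13.2% to 35.5%), and 3 overlapped a 60 min peak, 4.92% (1.03% to 13.7%). Of the 17 peaks at 60 min 3 overlapped a peak before heat shock, 17.6% (3.80% to 43.4%).

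Zswim6, which encodes a zinc finger protein of the SWIM type, had the highest repeated peak. From before heat shock to 60 min its summit held 14, 57 and 8 tags. As rates these were 18.6 (10.2 to 31.3), 36.8 (27.9 to 47.7) and 8.43 (3.64 to 16.6) per M. The 12 min interval lies above that of 60 min and overlaps that of before heat shock. All 3 summits, on chromosome 13 at 107890151, 107890165 and 107890158, lay upstream of the Zswim6 start, by 87, 101 and 94 bp.

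Egr1, the zinc finger transcription factor induced within minutes by serum and stress, held 7, 27 and 8 tags in time order. The rates were 9.32 (3.75 to 19.2), 17.4 (11.5 to 25.4) and 8.43 (3.64 to 16.6) per M. The 12 min value is the highest, but all 3 intervals overlap. The −log10 q of the Egr1 peak was 0.84, 4.69 and 1.94 in time order. The summits lay 371, 346 and 380 bp from an end of the gene.

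Egr3, a relative of Egr1 from the same immediate early family, held 7 tags before heat shock and 30 at 12 min, or 9.32 (3.75 to 19.2) and 19.4 (13.1 to 27.7) per M, with summits 2347 and 2269 bp from an end of the gene on chromosome 14. Map3k14, the kinase of the non-canonical NF-kB pathway, held 9 and 29 tags, or 12.0 and 18.7 per M. Homer1 held 7 and 24 tags, or 9.32 and 15.5 per M. Sertad1, a co-regulator that binds a cyclin-dependent kinase, held 8 and 24 tags, or 10.7 and 15.5 per M, at summits 718 and 706 bp beyond its 3′ end. These genes all had the higher rate at 12 min with overlapping intervals.

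In 3 of the 14 places the rate was lower at 12 min, and at 1 gene pair it was nearly level. At the Mob3a and Izumo4 gene pair the rates were 12.0 per M before heat shock and 12.9 at 12 min, from 9 and 20 tags. Upstream of Gm1720 they were 13.3 and 12.3, from 10 and 19 tags. On chromosome 16, at 8810967 and away from genes, 12 tags before heat shock and 17 at 12 min gave 16.0 and 11.0 per M, the lowest ratio of any place (0.688). On chromosome 8, near 10665009, 9 and 15 tags gave 12.0 and 9.69 per M. The highest ratio, 2.10, was at a place on chromosome 13 near 110929700, away from protein-coding genes, with 6 and 26 tags.

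Inside Synpo2, which encodes an actin-binding protein of muscle Z-discs, 7 and 17 tags gave 9.32 and 11.0 per M. Inside Jazf1, a zinc finger co-repressor, 7 and 20 tags gave 9.32 and 12.9. Inside Ubtd1, 7 tags before heat shock and 7 at 60 min gave 9.32 and 7.37. The remaining repeated place, on chromosome 15 near 7863123, had no protein-coding gene nearby, and 7 and 17 tags gave 9.32 and 11.0 per M. It lay over an HSF1 region of 12 min. The place on chromosome 8 near 10665009, given above, lay over an HSF1 region of 60 min and had no protein-coding gene nearby.

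Over the 14 places listed both before heat shock and at 12 min, the rate was higher at 12 min in 11, with a median ratio of 1.42 (0.688 to 2.10). The intervals were apart in 0 of the 14. Both lists select places that passed a threshold, and the lowest rate listed was 8.40 per M at 12 min against 6.66 before heat shock, so the ratios describe the listed places alone. The part of tag length in this difference was not tested.

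**Figure D3:**
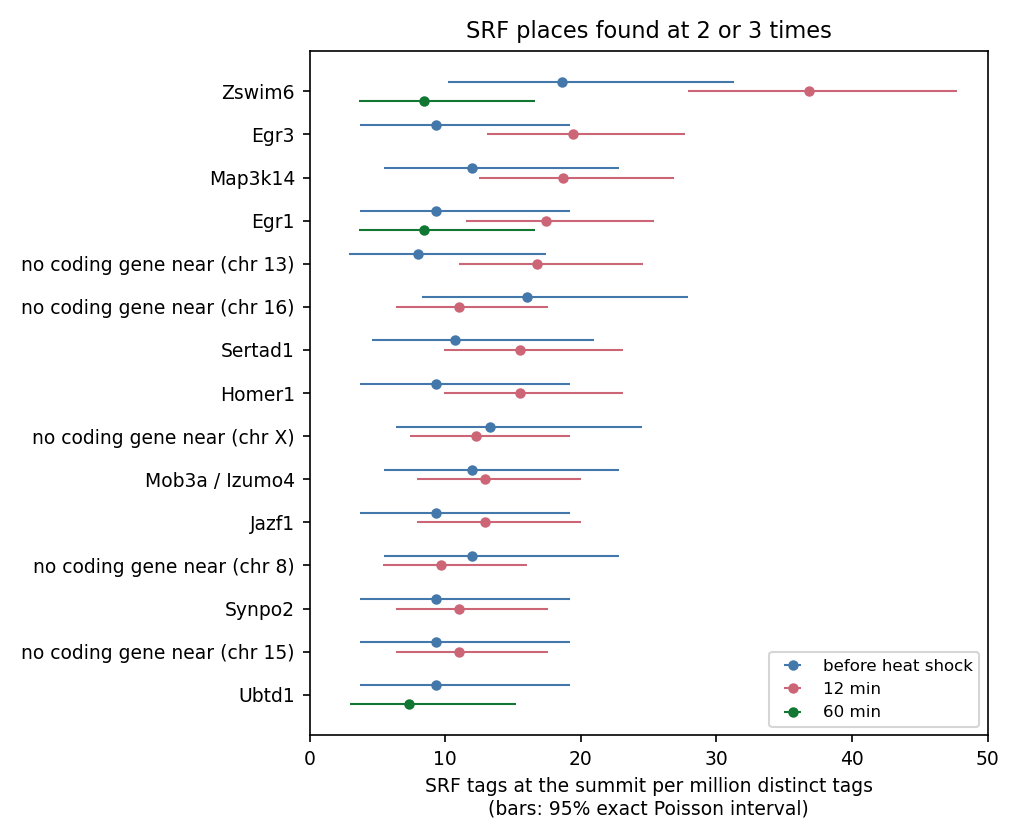
SRF tags at the summit per M distinct tags for the 15 places found at 2 or 3 times, with 95% exact Poisson intervals, coloured by time. At 12 min Zswim6 stands at 36.8 per M, above the other places, and the bars before heat shock and at 12 min overlap at each of the 14 places that have both.

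Repeated places lay near protein-coding genes in a larger share than places listed once. The summit was within 5 kb of a gene end in 7 of 15 repeated places, 46.7% (21.3% to 73.4%), and in 24 of 106 places of 1 time, 22.6% (15.1% to 31.8%). Without the 4 places of strong knockout peaks the second share was 23.5%. Within 1 kb the counts were 6 of 15, 40% (16.3% to 67.7%), and 14 of 106, 13.2% (7.41% to 21.2%). The intervals overlap at both distances. An HSF1 region of any time lay over 2 of the 15 repeated places and 23 of the 106 others.

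By time, the share of peaks within 5 kb of a protein-coding gene end was 16.4% before heat shock (10 of 61, 8.15% to 28.1%). It was 38.3% after 12 min (23 of 60, 26.1% to 51.8%) and 41.2% after 60 min (7 of 17, 18.4% to 67.1%). Within 1 kb it was 11.5%, 30% and 17.6%. At 60 min 3 of 17 peaks lay within 1 kb (3.80% to 43.4%) and 4 of 17 lay 1 to 5 kb away, 23.5% (6.81% to 49.9%), with overlapping intervals. A further 37.7%, 28.3% and 47.1% lay inside a gene but more than 5 kb from its ends. The rest, 45.9%, 33.3% and 11.8%, lay away from protein-coding genes. Only gene ends count here, so summits close to an internal transcript start, as at Wdr1, Mcl1 and Nr4a1, fall in a class farther out. The share of the genome in each class is not set beside these shares, nor beside those of repeated places and places of 1 time. They are therefore not read as more or less than random positions would give.

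**Figure D4:**
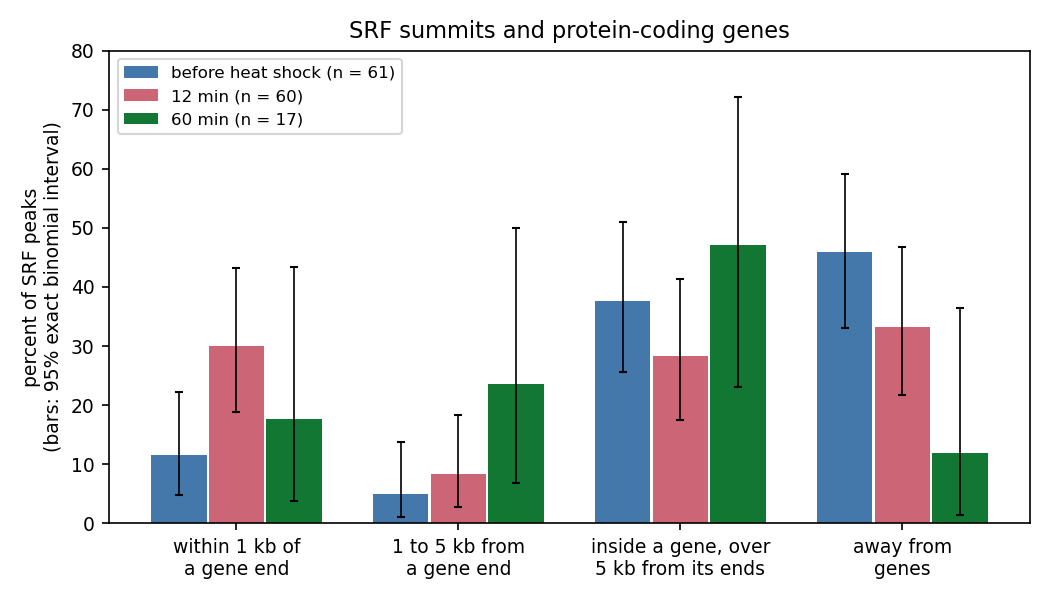
Percent of SRF peaks in 4 classes of position relative to protein-coding genes, by time, with 95% exact binomial intervals. Peaks within 1 kb of a gene end made up 11.5%, 30% and 17.6% in time order, and peaks away from genes 45.9%, 33.3% and 11.8%.

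Among the places listed at 1 time the split by time was wider. Of the 46 places listed before heat shock alone, 3 lay within 5 kb of a gene end, 6.52% (1.37% to 17.9%). Of the 46 listed at 12 min alone 16 did, 34.8% (21.4% to 50.2%), and these intervals do not overlap. Of the 14 listed at 60 min alone 5 did, 35.7% (12.8% to 64.9%). An HSF1 region of any time lay over 2, 16 and 5 of these places.

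Listing at 1 time is not absence at another. Of the 42 peaks listed before heat shock alone and free of strong knockout peaks, 17 had a rate at or below the lowest rate listed at 12 min, and for 0 of the 42 did the interval lie above it. For 25 of the 46 peaks of 12 min alone the interval lay above the lowest rate listed before heat shock, and for 39 above that of 60 min. Of the 14 peaks of 60 min alone, 2, at Nell2 and Ankrd12, had intervals above the lowest listed rate of both other times.

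Of 46 listed genes of the actin cytoskeleton, 6 had an end within 5 kb of a 12 min summit, or 13%, beside 0.139% of all 21631 protein-coding genes. Before heat shock and at 60 min the count was 0 of 46, beside 0.0509% and 0.0370% of all genes. With peaks inside gene bodies added, 7 of 46 had one at 12 min (15.2%, beside 0.213% of all genes) and 0 at the other times (beside 0.157% and 0.0740%). The list was chosen with results of these data known and does not hold every gene of actin biology: Synpo2, described above with a peak before heat shock, is not on it. With shares this low among all genes, counts of 0 in a list of 46 are near the background and do not show absence at these times. The lowest rates listed at the times differ as given above.

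The members span the parts of the filament. Actg1, the gene of cytoplasmic gamma-actin, had a summit of 26 tags, 16.8 per M (11.0 to 24.6), 1790 bp upstream of its start at chr11:120350100-120350410. Tpm1, a tropomyosin that coats actin filaments, had 27 tags, 17.4 per M (11.5 to 25.4), 212 bp before a transcript start at chr9:67049236-67049521, with the box printed above 4.5 bp from the summit. Cfl1, the severing protein cofilin, had 27 tags, 17.4 per M (11.5 to 25.4), 1306 bp before its start at chr19:5488983-5489288, a place 760 bp from an end of Mus81, a DNA endonuclease gene. These 3 were the highest of the actin members.

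Wdr1, which helps cofilin take filaments apart, had 23 tags, 14.9 per M (9.42 to 22.3), 51 bp before a start at chr5:38561630-38561873. Dstn, the cofilin relative destrin, had 17 tags, 11.0 per M (6.40 to 17.6), 262 bp before its start, inside the neighbouring gene Bfsp1. Myl12a, a regulatory light chain of non-muscle myosin, had 14 tags, 9.04 per M (4.94 to 15.2), 11 bp before its start. Myh9, the heavy chain of the same motor, had 13 tags, 8.40 per M (4.47 to 14.4), inside the gene, with a −log10 q of 0. Their intervals overlap those of the higher 3. The intervals of Dstn, Myl12a and Myh9 reach below 6.66 per M, the lowest rate listed before heat shock. Those of Wdr1, Actg1, Tpm1 and Cfl1 lie above it.

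Of these 7 genes, Wdr1, Myl12a and Myh9 had the SRF peak over an HSF1 region of 12 min. The HSF1 peaks there held 247 CS and 110 MM tags at Wdr1, 121 and 103 at Myl12a and 313 and 107 at Myh9. Tpm1, Actg1, Cfl1 and Dstn had none.

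Of 28 listed immediate early genes, 2 lay within 5 kb of a summit before heat shock (Egr1 and Egr3, 7.14%), 3 at 12 min (Mcl1 besides, 10.7%) and 1 at 60 min (Egr1, 3.57%), beside 0.0509%, 0.139% and 0.0370% of all protein-coding genes. With gene bodies added the counts were 2, 4 and 2, by Nr4a1 at 12 min and Npas4 at 60 min, beside 0.157%, 0.213% and 0.0740% of all genes. Nr4a1, an orphan nuclear receptor, had 26 tags, 16.8 per M (11.0 to 24.6), 78 bp before an internal transcript start, at chr15:101266636-101266907. Mcl1, a survival protein of the BCL2 family, had 19 tags, 12.3 per M (7.39 to 19.2), 13 bp before a start. Npas4, a transcription factor known from active neurons, had 7 tags, 7.37 per M (2.97 to 15.2), over an HSF1 region of 60 min with 498 CS and 137 MM tags.

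In the other lists no gene among the 7 of SRF and its cofactors, the 22 cytosolic chaperones, the 16 of fibroblasts and matrix and the 24 markers of other cell types had an end within 5 kb of a summit at any time. Of all these genes only Col5a1, a fibrillar collagen, had a summit in its body, with 6 tags before heat shock. With at most 0.139% of all genes near a summit and 0.213% with gene bodies added, counts of 0 or 1 in lists of this size are near the background and say nothing about these lists. Peak lists do not report expression, so the labelled cell type could not be checked from these markers.

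The other genes named from the peaks of 12 min alone had 19 to 26 tags. Atoh8, a basic helix-loop-helix factor, had 26 tags inside the gene, or 16.8 per M. Ap5b1, a subunit of an adaptor complex of endosomes, had 21 tags 1313 bp from its end. Vdac2, a porin of the outer mitochondrial membrane, had 20 tags at 633 bp. Gga1, a sorting adaptor of the Golgi, had 19 tags 72 bp before its start over the complete box shown above. Dynlt1b, a dynein light chain, had 19 tags at 408 bp. Mertk, a receptor tyrosine kinase gene with 20 tags, and Mcl1 tied in −log10 q and pileup with the last 4 of these and came later in the list. Of the 5, Ap5b1 lay over an HSF1 region. Away from genes the leading peaks held 28 and 20 tags on chromosome 15, at 59759748 and 38470900, and 25 on chromosome 5 at 142929203, and all 3 lay over HSF1 regions of 12 min.

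The 10 genes named from the peaks listed before heat shock alone had 6 to 9 tags each, and 8 of the 10 had the summit more than 1 kb from a gene end inside the gene. Sdc2, a cell surface proteoglycan, Ndst1, an enzyme of heparan sulfate synthesis, Sh3bp4 and Nsmce2 had 8 tags each, or 10.7 per M (4.6 to 21.0), and Psd3 had 9. Lama5, a laminin chain, had 8 tags at 4754 bp from an end. Trib1, a pseudokinase, was the member at a gene end, 78 bp away, with 7 tags. Enc1 and Frmd4a had 6 tags and Rbfox1, a splicing regulator, had 7, all inside the genes. These last 4 genes tied in −log10 q and pileup with 10 others of 6 to 7 tags, among them Cd44, Jak1 and Col5a1, and were taken in the order of the list. Away from genes, besides the pair on chromosome 2 with strong knockout peaks, a peak on chromosome 15 at 43721078 had 8 tags.

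At 60 min alone the heights were uneven. Nell2, a secreted protein best known from neurons, had 28 tags in the gene, 29.5 per M (19.6 to 42.6), and Ankrd12 had 16 tags 4003 bp from its end, 16.9 per M (9.64 to 27.4). Atxn1, the ataxin gene, had 11 tags inside, 11.6 per M (5.79 to 20.7). The other leading genes had 6 to 8 tags, with 8 at Ano6, a lipid scramblase, at Kl, at Itpr2, a calcium release channel, and at Cdh6, a cadherin, and 6 at Ahnak2, Ubald1 and Rab31. Ubald1 was the one with its summit within 1 kb of an end, at 126 bp. The peaks at Nell2, Ankrd12, Atxn1 and Ano6 lay over HSF1 regions of 60 min, as did that at Npas4. The 2 peaks away from genes, on chromosome 14 at 6108750 and chromosome 2 at 147744194, were not over HSF1 regions.

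SRF peaks lay over HSF1 regions of the same time in 0 of 61 cases before heat shock, where 3 counts would be a share of 4.92% and the upper bound of the exact interval is 5.87%, in 14 of 60 at 12 min, 23.3% (13.4% to 36%), and in 5 of 17 at 60 min, 29.4% (10.3% to 56%). The HSF1 regions themselves numbered 121, 1412 and 3455 in time order, so the room for overlap differed by time. At 12 min the peaks over HSF1 regions held 13 to 28 tags, with a median of 17, and the other 46 held 14 to 57, with a median of 19. At 60 min the order was the other way: the 5 peaks over HSF1 regions held 7 to 28 tags, with a median of 11, and the other 12 held 5 to 8, with a median of 7.5.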

How the data were processed

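The SRF peaks were called by the authors with MACS2 2.0.9 at a p cutoff of 1e-04 against IgG of the same time, and the CS and MM peaks with MACS 1.4.2, per the file headers. The build was mm10, per the submitters' processing notes. As for the aligner, it is not given in sources used here. Each SRF peak carries a pileup (a signal), a fold enrichment (a ratio) and −log10 values of a p-value and of a q-value, as deposited by the authors. The HSF1 and knockout lists carry tag counts as deposited by the authors. SRF tags at each summit were recovered from the fold, p and library sizes in the headers, with the caller's scaling inferred from the values, and rates are these tags over the distinct tags of the library. The PRO-seq, IgG and input samples of the 33 in the series were not used here.

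Peaks that overlapped by at least 1 bp at different times formed a place. Ends of 21631 protein-coding genes were read from a RefSeq table of GRCm38.p6, whose primary assembly is that of mm10. The table has no strand, so distances are to either end unless a transcript start is named. Starts and promoter letters came from the RefSeq promoter table of GRCm38.p6 with 32851 windows of 300 bases. No genome was used, so the planned search of windows around all summits was replaced by these promoter windows.

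The members and the 6 gene lists (143 genes, all 143 found in the table) were chosen with earlier results of these data known. Genes were named by this rule: every place found at 2 or 3 times, at each time the 10 peaks of that time alone with the highest −log10 q at a gene and the 3 away from genes, and every listed gene with a peak. Ties in −log10 q were broken by pileup, then by the order of the list. Alternatives changed the set-aside places, the threshold, the overlap, the distance and the letters searched. Python 3.11.15 with numpy 2.4.6, pandas 2.3.3, scipy 1.17.1 and matplotlib 3.10.9 was used. The recovery of tags was tested on data simulated with the same inferred scaling, so that test does not check the reading of the caller.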

Additional observations from a re-analysis of the deposited data

Results flagged for a closer look

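The places set aside held 3, 8 and 1 SRF peaks (before heat shock, 12 and 60 min), which were left out of the comparisons. On the mitochondrial chromosome there were 1, 2 and 0 of these peaks, and in the first 3.1 Mb of chromosome 9 there were 2, 6 and 1. Their summits held 22 to 25 tags before heat shock, 28 to 69 at 12 min and 21 at 60 min, above the median of the kept peaks at each time. Their fold enrichment over background was 5.01 to 32.68, and their −log10 q 0.01 to 7.31. Kept peaks outside the places of strong knockout peaks had folds of 18.75 to 344.22, a range that lies mostly higher. No SRF library of cells lacking SRF was at hand to set a level for these places.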

How the results depend on the processing

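A count was taken as moved beyond 1.5 times the count reported, a share outside its 95% interval and a median when it changed at all. Of 72 alternative values over 20 results, 24 moved in this sense and 48 did not. At a −log10 q of at least 1.3 the lists held 20, 30 and 9 peaks in time order, at 2 or more 18, 27 and 3, and at a pileup of at least 5 they held 7, 15 and 3, since fewer peaks remain by construction. Most of the 12 min peaks left out at 1.3 tied at a −log10 q of 1.29, just below the threshold. At 1.3, 6 places were found at 2 or 3 times, 56.7% of the 12 min peaks lay within 5 kb of a gene, and the immediate early count before heat shock was 0. In recovered tags the medians were 7, 18.5 and 8 in place of pileups of 3, 3.5 and 4, and with the set-aside places included the 12 min pileup median was 4. Within 10 kb the share before heat shock was 29.5% and the immediate early count at 60 min 2. Within 1 kb the share at 60 min was 17.6%, the actin count at 12 min 3, and the immediate early counts before heat shock and at 12 min 1 and 1. These distances are to gene ends, so Wdr1 and Mcl1, with summits 51 and 13 bp before a start, are not counted within 1 kb. The share of promoter windows with a CArG box was 53.3% with 1 middle letter changed and 80% with 1 letter anywhere. For values that moved by other than their own construction the cause was not tested. The recovered tags, the removal of places with strong knockout peaks and the letter changed anywhere were chosen after seeing the data.

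No paired analysis was possible because each time has 1 SRF list and the labels give no replicate numbers. No replicate could be left out. The median peak rests on 7 to 18.5 tags, and the intervals before heat shock and at 12 min were apart at 0 of the 14 repeated places that have both.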
